A study of Homo sapiens and Mus musculus with 33 samples.

Results

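Translation initiation and elongation factors load the ribosome onto an mRNA and move it along. They were taken here as every gene whose symbol starts with EIF or EEF and a digit (Eif or Eef in mouse), without the EIF2AK kinases, Y-linked genes and pseudogenes. That gave 65 of 36601 genes in the human feature list and 62 of 32285 in the mouse list. The same pattern also drops EIF4EBP1 to EIF4EBP3, whose symbols end in P and a digit, and these are read below with the regulators. Of the human members 3 are noncoding transcripts (EIF1B-AS1, EIF1AX-AS1 and EIF3J-DT), and 61 of the 65 had a 3' UTR line in the Jurkat SLAM-seq tables, found by GRCh38 position.

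The study labelled new RNA with 4-thiouridine (4sU) and turned the label into T-to-C changes with iodoacetamide (IAA). Bulk SLAM-seq libraries came from Jurkat T Clone E6-1, a human T cell leukaemia line: 3 with 50 nM CPT, 3 with 1 µM ETO and 3 control libraries, all titled as 4sU labelled. Single-cell libraries came from PMA/ionomycin-stimulated (labelled Clone E6-2) and DMSO-treated unstimulated (labelled Clone E6-1) Jurkat cells, 2 each, and from mouse lymph node naive T cells at 0, 2, 4, 6 and 8 h of anti-CD3 and anti-CD28, 1 each, with 1 library without 4sU. Others were eHAP cells, a haploid human line, by NOTE-seq (formaldehyde-fixed, 4sU), by methanol fixation with 4sU and by standard 10x without 4sU, 1 each. There were also 2 libraries labelled K562, a human leukaemia line, with and without IAA, and 1 mix of Jurkat Clone E6-1 and mouse NIH3T3 fibroblasts without 4sU or conversion. A further 8 bulk SLAM-seq libraries of mouse lymph node T lymphocytes, controls and 3 concentrations with 2 libraries each, whose lines carry mouse transcript IDs without gene names, were not analysed here. The clone label differs with the stimulation, so the clone and the treatment cannot be told apart. The labels do not tie the replicates to cultures or animals of their own. The p-values therefore cover the spread among these libraries, part or all of which may be technical.

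Initiation starts with eIF2, a complex of 3 subunits that brings the initiator tRNA, and eIF2B, which recharges eIF2 with GTP. The eIF4 factors bind the mRNA cap (eIF4E), bridge it to the ribosome (eIF4G) and unwind the leader (the helicase eIF4A, helped by eIF4B and eIF4H), while eIF3 is the many-subunit scaffold on the small subunit. eIF1, eIF1A, eIF5 and eIF5B steer scanning, start codon choice and subunit joining. During elongation eEF1A delivers aminoacyl-tRNA, the eEF1B subunits recharge eEF1A, and eEF2 moves the ribosome on. Many mRNAs of the translation machinery begin with a C followed by a run of pyrimidines, a terminal oligopyrimidine start, and their translation is known to follow mTOR signalling.

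The start bases of the genes are shown because this run is a feature that the choice of members did not use. RefSeq promoter windows (build GRCh38.p14) were matched for 52 of the 65 human members. A start counted as pyrimidine-led when the annotated first base is C and the next 4 or more bases are each C or T, read on the transcribed strand only and at any of a gene's annotated starts. This held for 13 of those 52 members, against 1404 of the 27305 genes with a window (5.14%). Each line below gives 10 bases before the start and 20 from it on, 5′ to 3′, and the capitals mark the run.
EEF1A1 (chr6:73521013-73521042, minus strand): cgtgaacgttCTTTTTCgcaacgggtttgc
EEF2 (chr19:3985444-3985473, minus strand): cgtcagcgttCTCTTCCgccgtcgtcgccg
EEF1B2 (chr2:206159885-206159914, plus strand, the second of 2 starts): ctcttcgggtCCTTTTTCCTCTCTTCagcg
EIF2A (chr3:150546777-150546806, plus strand): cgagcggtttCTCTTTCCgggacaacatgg
EIF2S3 (chrX:24054946-24054975, plus strand): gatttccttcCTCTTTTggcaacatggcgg
EIF3F (chr11:7987327-7987356, plus strand): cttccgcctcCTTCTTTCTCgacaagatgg
EIF3M (chr11:32583821-32583850, plus strand): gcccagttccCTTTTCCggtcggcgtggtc
EIF3D (chr22:36529147-36529176, minus strand): cgcatgtttcCTCTTTTCCTggtttctcaa
EIF3K (chr19:38619178-38619207, plus strand): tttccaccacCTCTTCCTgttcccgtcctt
EIF4B (chr12:53006446-53006475, plus strand): tcatccgggtCTTTTgcgttctctttccct
EIF4A2 (chr3:186783567-186783596, plus strand): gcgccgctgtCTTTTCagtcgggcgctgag
EIF4A1 (chr17:7572815-7572844, plus strand): ggcactccgccctagtttctaaggatcatg
EIF4E (chr4:98929114-98929143, minus strand): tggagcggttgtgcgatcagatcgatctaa
EIF2S1 (chr14:67360318-67360347, plus strand): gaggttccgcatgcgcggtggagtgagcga
The last 3, a helicase, the cap-binding protein and the eIF2 alpha subunit, have no such run in this window and are printed for contrast. The other pyrimidine-led members were EIF2D and EIF2S3B. The longest run printed, at 16 bases, was that of EEF1B2, a subunit of the eEF1A exchange factor.

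Depth was as follows. Over 3' UTR groups, the CPT libraries held between 17776970 and 22433946 reads, the ETO libraries between 24021586 and 39602287, and the control libraries between 32509569 and 38582081. Those carrying a conversion made up 1.27% to 1.30% of CPT, 2.21% to 2.22% of ETO and 1.98% to 2.08% of control reads. Mitochondrial reads took 5.31% to 6.68% of CPT, 2.88% to 3.03% of ETO and 1.05% to 1.24% of control reads. Naive T libraries were shallow, with medians of 338 to 659 UMIs per cell, so that 35 of 62 members reached 100 UMIs over the 0 h and 8 h libraries. All 10 T cell markers were at 1 CPM (the count scaled to the library total) or more in each of the 4 Jurkat libraries, and all 13 mouse T cell markers in each naive T library. In the libraries labelled K562 no erythroid marker reached 1 CPM, and HBG1, HBG2 and GATA1 were at 0, 0 and 0.089 CPM with IAA and at 0 without it. The myeloid list summed to 264 CPM with IAA and 226 CPM without it. The B cell list summed to 36.7 and 31.7 CPM, and the T cell list to 26.8 and 45.2 CPM, in the same order. These libraries thus go against their label, and which cells they hold was not tested. The library with IAA held 1511 cells and the one without it only 49.

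The members took 2.38% to 2.43% of all nuclear reads in CPT libraries, 2.37% to 2.43% in ETO and 2.71% to 2.79% in control libraries. EEF1A1 alone, which encodes the main eEF1A, held 35.5% to 36.6% of member reads in CPT libraries, 32.2% to 33.3% in ETO and 37.7% to 39.2% in control libraries. In single cells, members took between 1.57% and 2.46% of UMIs, and EEF1A1 or Eef1a1 led the family in every library.

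In the control Jurkat libraries, few reads of translation factor transcripts carried a conversion. All Jurkat SLAM-seq libraries are titled as 4sU labelled, so no background of T-to-C changes was read. The lowest shares cannot be told from such a background. The labelled share, reads with a conversion as a percent of a gene's reads, had a median of 1.69% over the 54 members that reached 100 reads in all 3 control libraries, and 2.53% over the 11349 genes and unnamed 3' UTR groups with that depth. Of the 54 members, 14 lay above that overall median. By role, the elongation factors stood lowest, with a median of 0.363% over 5 members. The eIF3 subunits followed with 0.766% over 12, then eIF2B with 1.13% over 5 and the eIF5A genes with EIF6 1.14% over 4. EEF2K with the methyltransferases had 1.74% over 7, and the eIF2 subunits with EIF2A 1.77% over 4. The eIF4 group, with 2.93% over 11, and the scanning factors, with 3.77% over 6, stood highest.

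EIF1AD, an EIF1A-domain protein, carried the most label, at 13.6% to 15.5% in the 3 control libraries. EIF4A2, a second eIF4A helicase, followed at 8.24% to 9.38%, and EIF5, which activates GTP hydrolysis by eIF2, with 7.70% ± 0.517 (SD, n = 3). These shares lay at or above those of 98.8%, 92.8% and 90.1% of all genes measured. EIF3A, the largest eIF3 subunit, had 5.68% ± 0.667 (SD, n = 3), EIF5A2, a second eIF5A gene, 5.55% ± 1.25, and EIF4ENIF1, which carries eIF4E into the nucleus, 5.17% ± 2.03. The 3 libraries of the last spread from 2.87% to 6.70%, on 102 converted reads in all.

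At the low end, EEF1D, a further exchange factor subunit, had 0.105% ± 0.0269. The eIF3 subunits EIF3K and EIF3G had 0.124% ± 0.0333 and 0.147% ± 0.0442. EEF1G, which anchors the exchange complex, had 0.249% ± 0.00768, EEF1AKMT4, a methyltransferase of eEF1A, 0.288% ± 0.146, and EEF1B2 0.363% ± 0.0201 (SD, n = 3 each). Over the 3 control libraries, converted reads numbered only 4 for EEF1AKMT4, 9 for EIF3K, 38 for EIF3G and 39 for EEF1D. EEF1B2 and EEF1G had 391 and 455. The order at the low end thus rests partly on few reads. The neighbours EEF1D and EIF3K did not differ beyond their spread. EEF2 had 0.692% ± 0.0244 and EEF1A1 0.867% ± 0.021, EIF5A 0.614% ± 0.0755 and EIF6, which keeps the large subunit from joining early, 0.803% ± 0.105. EIF1 had 2.39% ± 0.0909, EIF2S1 2.05% ± 0.59, EIF4G1 1.68% ± 0.434, EIF4E 3.63% ± 0.387 and EIF4A1 4.74% ± 0.497. The helicases EIF4A1 and EIF4A2 did not overlap in any library.

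Short 3' UTRs show fewer T positions per read, and this moved with the low end. EIF3K, EEF1B2, EEF1D and EIF3G have lines of 35, 45, 95 and 100 bases and showed 9.82, 9.96, 10.5 and 9.82 covered T positions per read, against a median of 24.8 over the members. Counted as conversions per covered T position, the same 6 members were still lowest, from 0.00837% for EEF1D to 0.0344% for EEF1B2, and 4 of the 6 highest were shared. On that scale EIF1AD had 1.01% ± 0.0466, EIF5 0.681% ± 0.0501 and EIF4A2 0.637% ± 0.0386. The members' median was 0.133% and that of all genes 0.217%. Pyrimidine-led members had a median labelled share of 0.867% over 11, from 0.124% for EIF3K to 8.77% for EIF4A2, against 2.13% over 32 other members with a window.

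**Figure D1:**
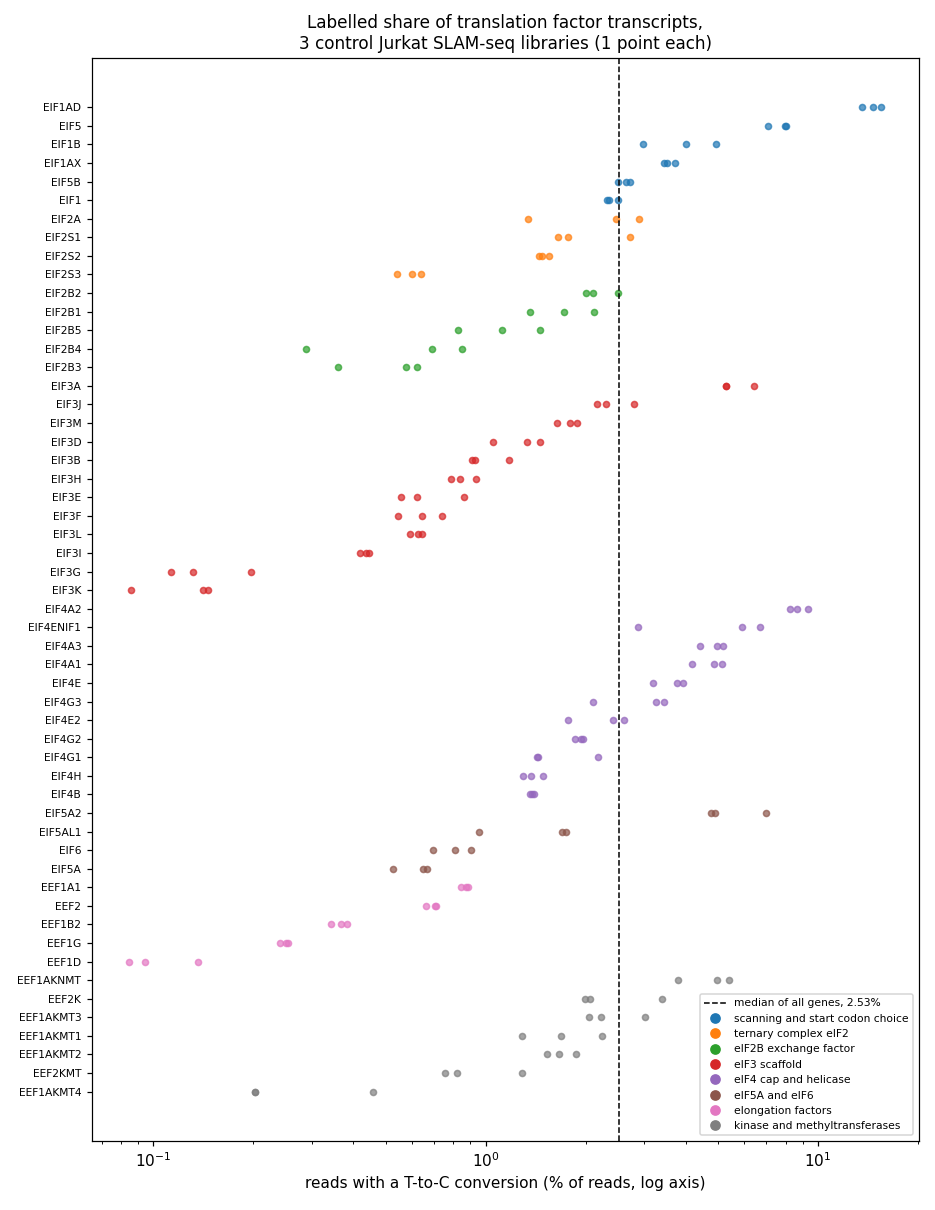
Labelled share (reads with a T-to-C conversion as percent of reads, log axis) of 54 translation factor genes in the 3 control Jurkat SLAM-seq libraries, 1 point per library, coloured by role; the dashed line is the median of all genes, 2.53%. Elongation factors lie left of the line, and EIF1AD, at 13.6% to 15.5%, lies farthest right.

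Whether the drugs changed how much RNA of these factors the cells held was read from all reads. In CPT libraries, translation factor RNA was mostly lower: 34 of 58 members tested fell and 8 rose (edgeR's quasi-likelihood test, Benjamini-Hochberg adjusted p under 0.05). Among all 17307 genes and groups tested, 24.8% fell and 23.1% rose. The median log2 fold change was -0.33 over the members and 0.00 over all tested. With plain library totals in place of TMM scaling, chosen after seeing the data, the median of all stood at 0.14 and that of the members at -0.19, with 29 falls and 15 rises. Fold changes below are on the TMM scale, relative to the other genes, so they can differ from the ratio of the CPM values beside them. These are bulk samples of a cell line, in which fewer cells of a type and less RNA per cell cannot be told apart. The rise of the mitochondrial share given above ran alongside, and its part in these changes was not tested.

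Among elongation factors, 4 of 7 fell and 1 rose with CPT. EEF1A1 had 8710, 8760 and 8600 CPM of all nuclear reads in CPT libraries and 10900, 10700 and 10200 in control libraries. The groups did not overlap, and the log2 fold change was -0.42 ± 0.03 (SE, edgeR adjusted p = 1.8e-09). EEF2, the translocase, had 2180, 2430 and 2500 in CPT libraries and 3330, 3430 and 3250 in control libraries. All CPT values lay below all control values, with a log2 fold change of -0.63 ± 0.05 (edgeR adjusted p = 3.8e-10). EEF1B2 fell by 0.44 ± 0.04 on the log2 scale, while EEF1D, another subunit of the same exchange complex, rose by 0.22 ± 0.05. EEF1E1, a small protein that joins the tRNA synthetase complex, fell by 2.17 ± 0.53, but had only 3 to 10 reads in CPT and 40 to 73 reads in control libraries.

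The eIF3 scaffold gave 10 falls and 1 rise among 14 members. EIF3E had 162, 142 and 151 CPM in CPT libraries and 261, 235 and 320 in control libraries. Every CPT library lay below every control library, and it fell by 0.98 ± 0.08 on the log2 scale (edgeR adjusted p = 2.5e-09). EIF3H had 291, 285 and 273 in CPT and 429, 431 and 441 in control libraries, a log2 fold change of -0.75 ± 0.05 (edgeR adjusted p = 8.8e-11). EIF3B, which holds the scaffold's core together with EIF3A, fell by 0.70 ± 0.07, EIF3I by 0.54 ± 0.06, EIF3M by 0.48 ± 0.07 and EIF3F by 0.38 ± 0.05. EIF3G rose by 0.22 ± 0.06. EIF3CL fell by 1.73 ± 0.50, but it is a near copy of EIF3C and the split of reads between them is uncertain.

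Within eIF2, the gamma subunit EIF2S3 had 229, 234 and 223 CPM in CPT libraries and 380, 370 and 355 in control libraries. It had the smallest p of all members, with a log2 fold change of -0.83 ± 0.05 (edgeR adjusted p = 3.3e-11). EIF2S2, the beta subunit, fell by 0.30 ± 0.05, and EIF2A, a separate protein that can deliver initiator tRNA, by 0.93 ± 0.11. The alpha subunit EIF2S1, the target of the stress kinases, had 174, 193 and 188 in CPT and 181, 184 and 180 in control libraries, which overlap. In eIF2B, the catalytic subunit EIF2B5 was not called, EIF2B4 rose by 0.53 ± 0.07 and EIF2B2 by 0.27 ± 0.08, and EIF2B1 fell by 0.15 ± 0.06. The EIF2B1 call was lost with plain library totals and without any 1 of 5 libraries. It was also lost with DESeq2, DESeq2 size factors, the compared groups alone, the replicate block and all lines summed.

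Of the eIF4 group, 6 of 11 fell and 2 rose with CPT. EIF4E had 88.6, 84.4 and 83.3 CPM in CPT and 106, 112 and 125 in control libraries, a log2 fold change of -0.56 ± 0.07 (edgeR adjusted p = 1.3e-06). EIF4B fell by 0.53 ± 0.05, EIF4A1 by 0.40 ± 0.05 and EIF4H by 0.38 ± 0.06. The other helicases went the opposite way: EIF4A2 had 249, 248 and 256 in CPT and 188, 183 and 187 in control libraries, a log2 fold change of 0.29 ± 0.05 (edgeR adjusted p = 7.8e-05). EIF4A3, a part of the exon junction complex, rose by 0.26 ± 0.06. EIF4G1 had 40.1, 47.3 and 46.8 in CPT and 45.3, 48.0 and 45.1 in control libraries, which overlap.

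EIF5A, whose protein carries the amino acid hypusine and helps at hard peptide bonds, had 70.0, 76.1 and 62.9 CPM in CPT and 148, 126 and 113 in control libraries. Its groups did not overlap, and the log2 fold change was -1.02 ± 0.10 (edgeR adjusted p = 1.5e-08). EIF6 had 264, 268 and 263 in CPT and 217, 180 and 169 in control libraries, a log2 fold change of 0.35 ± 0.07 (edgeR adjusted p = 0.00018). The kinase EEF2K, which slows elongation by phosphorylating eEF2, had 16.6, 15.7 and 20.2 in CPT and 29.9, 28.2 and 27.4 in control libraries. It fell by 0.84 ± 0.11, and of its group, with the methyltransferases of eEF1A and eEF2, 5 of 7 fell. The scanning factors gave 3 falls and 1 rise among 6: EIF1B fell by 0.49 ± 0.08, EIF5B by 0.31 ± 0.06 and EIF1AX by 0.23 ± 0.06 (lost with plain library totals, edgeR adjusted p = 0.25), and EIF5 rose by 0.23 ± 0.06.

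ETO gave a more even picture. Of the 58 members, 22 fell and 14 rose, with a median log2 fold change of -0.03 over the members and 0.01 over all 17307 tested, of which 17.2% fell and 17.2% rose. With plain library totals the members' median was 0.04 and that of all 0.07, with 18 falls and 20 rises. The CPT and ETO comparisons share the control libraries, and the difference between the drugs was not tested in total RNA. EEF1A1 had 7660, 8110 and 7890 CPM in ETO libraries against the control values above, a log2 fold change of -0.49 ± 0.03 (edgeR adjusted p = 6.2e-10). EEF2 had 2510, 2530 and 2370 in ETO libraries, a log2 fold change of -0.50 ± 0.05 (edgeR adjusted p = 4.6e-08). Both lay below every control library.

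The eIF3 subunits EIF3E, EIF3B and EIF3H fell with ETO by 0.80 ± 0.08, 0.53 ± 0.07 and 0.44 ± 0.05, and EIF4B by 0.45 ± 0.05. EIF1B fell by 0.67 ± 0.08, EIF5A2 by 0.67 ± 0.15, EIF5A by 0.42 ± 0.09 and EIF2S3 by 0.33 ± 0.05. Among those that rose, EIF6 had 289, 296 and 284 CPM in ETO libraries, a log2 fold change of 0.56 ± 0.07 (edgeR adjusted p = 1.4e-06). EEF1AKNMT, a methyltransferase of eEF1A, had 81.4, 77.3 and 78.4 in ETO and 50.7, 51.5 and 51.2 in control libraries, a log2 fold change of 0.56 ± 0.07 (edgeR adjusted p = 1.4e-06). In eIF2B 4 of 5 subunits rose: EIF2B3 by 0.52 ± 0.11, EIF2B4 by 0.42 ± 0.07, EIF2B2 by 0.29 ± 0.07 and EIF2B5 by 0.25 ± 0.08. The EIF2B5 call was lost without control library 2, control library 3 or ETO library 2 (edgeR adjusted p = 0.086, 0.12 and 0.073). The helicase EIF4A2 had 204, 216 and 211 in ETO libraries, all above control, with a log2 fold change of 0.11 ± 0.05 that missed the threshold (edgeR adjusted p = 0.097). EIF2S1 had 211, 228 and 234 in ETO libraries, above all control libraries, and rose by 0.24 ± 0.06.

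The pyrimidine-led members shown at the start were mostly lower with either drug. With CPT, 9 of 11 fell and 1, EIF4A2, rose, with a median log2 fold change of -0.44, against 18 falls and 5 rises among 34 other members with a window (median -0.25). With ETO, 7 of 11 fell and 1, EIF3K, rose (median -0.26), against 11 falls and 8 rises among 34 (median -0.01). The EIF3K call was lost without control library 1, control library 2 or ETO library 2 (edgeR adjusted p = 0.1, 0.086 and 0.13). Over all genes tested, 35.9% of 775 pyrimidine-led genes fell with CPT and 27.8% of 9581 others with a window. With ETO the shares were 25.9% and 19.5%. This split was made with the values known and carries no test.

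**Figure D2:**
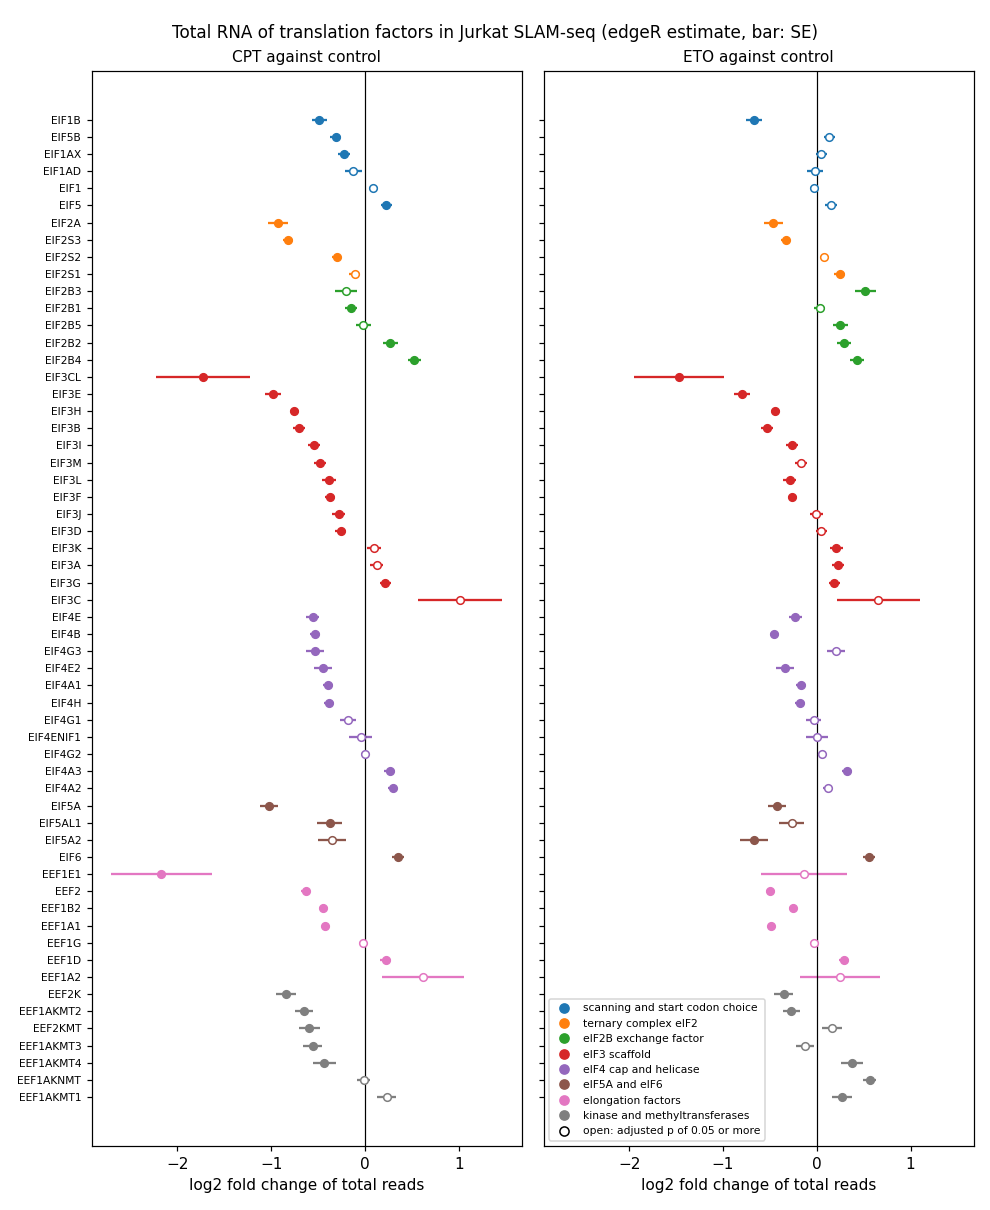
Log2 fold change of total reads (edgeR estimate, bar: SE, 3 libraries a group) for 58 translation factors, CPT against control on the left and ETO against control on the right, with open points at an adjusted p of 0.05 or more. With CPT most points lie left of 0 (34 fell, 8 rose); with ETO, the eIF2B genes and EIF6 lie on the right.

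New RNA, the reads with a conversion, was compared relative to each library's own total of converted reads. These reads carry no molecular identifiers, so they are counts of reads and not of molecules. The SEs and p-values cover the spread among the libraries, as above. Only a few members moved: with CPT 1 of 51 rose and 2 fell (3.37% and 2.75% of 9277 genes and groups, 6.12% either way), and with ETO 1 rose and none fell (1.14% and 0.733%). At an unadjusted edgeR p under 0.05 there were 15 members with CPT and 10 with ETO. The share of all genes at that p is not given here, so these counts are not read further. DESeq2 called 10 of 57 members with CPT and 3 with ETO, against 1167 and 489 of 17564 genes and groups.

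EIF4A2 rose with both drugs. Its 3' UTR line lies at chr3:186789270-186789897 (GRCh38, plus strand). It had 1200, 1420 and 1340 CPM of all converted reads in CPT libraries, 1220, 1420 and 1270 in ETO libraries, and 848, 797 and 781 in control libraries. The log2 fold change was 0.74 ± 0.11 with CPT (SE, edgeR adjusted p = 0.00017) and 0.70 ± 0.11 with ETO (edgeR adjusted p = 0.00037), with no overlap with control. As a share of its own reads, the label was 6.09%, 7.42% and 6.80% in CPT libraries, 13.2%, 14.6% and 13.3% in ETO, and 9.38%, 8.69% and 8.24% in control libraries. CPT libraries held a lower share of converted reads, and scaling to all reads put the median log2 fold change of all genes with CPT at -0.89, where it was -0.07 before, and EIF4A2 then had a log2 fold change of -0.08 (edgeR adjusted p = 0.6). On that scale 31 of 51 members fell with CPT (60.8%) and none rose, with a median of -0.97 over the members. Of all 8966 genes and groups tested on it, 3316 were called either way. The change of scale moves all genes by about the same amount. EIF4A2 thus had to stay above the median of all genes on both scales, which adds no check of its rise.

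EIF4E had 86.5, 124 and 104 CPM of converted reads in CPT libraries, 196, 151 and 201 in ETO, and 163, 220 and 238 in control libraries. The log2 fold change with CPT was -0.94 ± 0.28 (edgeR adjusted p = 0.04). The call rested on 82 converted reads over the 3 CPT libraries. It was lost when any 1 control library or CPT library 1 was left out (edgeR adjusted p between 0.058 and 0.2). EEF1A1 had 3650, 3780 and 3470 in CPT, 3610, 4030 and 3680 in ETO, and 4650, 4650 and 4340 in control libraries. With CPT it fell by 0.29 ± 0.07 (edgeR adjusted p = 0.019), and with ETO the log2 fold change was -0.26 ± 0.07 (edgeR adjusted p = 0.076). Without control library 1 or control library 2 the CPT call was lost (edgeR adjusted p = 0.07 and 0.095), as it was with the compared groups alone (0.063). EEF2, lower in total RNA, had 1120, 1500 and 1470 CPM of converted reads in CPT, 1450, 1450 and 1390 in ETO, and 1070, 1200 and 1170 in control libraries, and was not called. EEF2K had 0, 2 and 2 converted reads in CPT libraries, 27, 34 and 28 in ETO, and 20, 33 and 21 in control libraries, which missed the threshold (edgeR adjusted p = 0.055).

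Between CPT and ETO directly, edgeR called 0 of 51 members (0.916% of genes rose and 0.981% fell, 1.9% either way). There were 10 members at an unadjusted edgeR p under 0.05, again without the share of all genes. DESeq2 called 3 of 57 members, against 591 of 17564 genes and groups. For EIF4A2 the log2 difference was 0.04 ± 0.11, for EIF4E -0.77 ± 0.28 and for EEF2K -3.01 ± 0.82 (edgeR adjusted p = 0.92, 0.16 and 0.058).

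**Figure D3:**
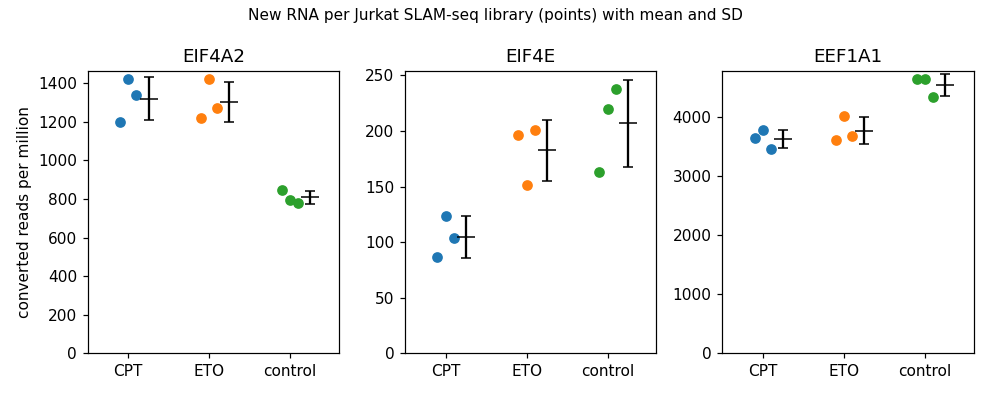
New RNA (converted reads as CPM of all converted reads, linear axis from 0) of EIF4A2, EIF4E and EEF1A1 in each Jurkat SLAM-seq library, in CPT, ETO and control order, with the mean and SD of 3 libraries beside the points. EIF4A2 lies at 1200 to 1420 in CPT and 1220 to 1420 in ETO libraries, above 781 to 848 in control.

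Other genes of protein synthesis were read from lists of regulators and partners. In total RNA with CPT, 13 of 25 translation control genes fell and 3 rose, beside 24.8% and 23.1% of all genes tested. LARP1, which binds pyrimidine-led mRNAs, fell by 0.46 ± 0.05 on the log2 scale, and MTOR, the growth kinase, by 0.45 ± 0.08. PPP1R15A, which reverses eIF2 alpha phosphorylation, rose by 1.10 ± 0.10. EIF4EBP1, which blocks eIF4E, fell by 0.45 ± 0.12. Of 10 genes of poly(A) binding, termination and recycling 8 fell and none rose, with ABCE1, the ribosome recycling factor, falling by 0.54 ± 0.07. The list of cytosolic tRNA synthetases and their complex members split, with 12 of 21 falling and 5 rising: IARS1, for isoleucine, fell by 0.88 ± 0.06, and AARS1, for alanine, and SARS1, for serine, rose by 0.85 ± 0.06 and 0.89 ± 0.07. Mitochondrial translation factors gave 4 falls and no rise among 9. The median log2 fold changes of these lists were -0.25, -0.31, -0.24 and -0.21, in that order.

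With ETO the same lists gave 5 falls and 4 rises among 25 regulators, and 3 falls and 1 rise among 10 termination genes, beside 17.2% of all genes tested in either direction. There were 4 falls and 8 rises among 21 synthetases, with SARS1 rising by 0.79 ± 0.07 and AARS1 by 0.67 ± 0.06, and 3 falls and no rise among 9 mitochondrial factors. Their medians were 0.00, 0.01, 0.08 and 0.00. 

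In new RNA few genes of these lists were called, beside 3.37% of all genes higher and 2.75% lower with CPT. With CPT, 1 of 21 regulators rose and 1 fell, 1 of 10 termination genes rose, 2 of 20 synthetase list genes rose and 1 fell, and 1 of 5 mitochondrial factors fell. AARS1 rose by 1.51 ± 0.20 on the log2 scale (edgeR adjusted p = 2.8e-05), NARS1, for asparagine, by 0.81 ± 0.24 (0.044), PAIP2, which holds back the poly(A) binding protein, by 1.35 ± 0.29 (0.0048) and PABPC4, a poly(A) binding protein, by 0.70 ± 0.14 (0.0026). The genes called lower had few converted reads. DPH5, of the diphthamide pathway that modifies eEF2, had 5, 0 and 0 in CPT libraries and 35, 34 and 34 in control libraries (edgeR adjusted p = 0.03). TUFM, the mitochondrial elongation factor Tu, had 0, 2 and 3 in CPT and 37, 22 and 36 in control libraries (0.03), and VARS1, for valine, 0 in each CPT library and 7, 15 and 13 in control libraries (0.049). Of these calls, those of AARS1 and PABPC4 held without any 1 library. The VARS1 call was lost without any 1 of the 6 libraries, that of DPH5 in 5 of the 6 fits, those of TUFM and NARS1 in 4 and that of PAIP2 without control library 2. In total RNA PABPC4 fell, by 0.75 ± 0.11 with CPT (edgeR adjusted p = 9.1e-06) and by 0.46 ± 0.11 with ETO (0.0025). The rises in new RNA are relative to converted reads. On the other scale used for EIF4A2, the typical gene moved by -0.89 with CPT. That shift is larger in size than the rises of PABPC4 and NARS1, and smaller than those of AARS1 and PAIP2.

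With ETO, 1 of 21 regulators, 1 of 10 termination genes and 1 of 20 synthetase list genes rose and 1 of 5 mitochondrial factors fell (1.14% and 0.733% of all genes). AARS1 rose by 0.97 ± 0.20 (edgeR adjusted p = 0.0053), DPH2, also of the diphthamide pathway, by 1.81 ± 0.44 (0.025), and MTRFR, a mitochondrial release factor family member, fell by 1.25 ± 0.25 (0.0053). The AARS1 call was lost without control library 2 or 3, that of MTRFR without control library 1 or 3, and that of DPH2 in 5 of the 6 fits. PABPC1, the main poly(A) binding protein, rose by 2.10 ± 0.40 (0.0028), but 1 library decided the size: its converted reads numbered 280, 501 and 2050 in ETO libraries and 239, 203 and 251 in control libraries. Without ETO library 3 the log2 fold change was 0.76 (edgeR adjusted p = 0.023).

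Few translation factors were called in Jurkat cells stimulated with PMA and ionomycin. The early response gene EGR1, a check of the stimulus, had 976 and 923 CPM in the stimulated libraries of sets 1 and 2, and 8.03 and 11.4 CPM in the unstimulated ones. With the set as a term, edgeR called 2 of 63 members higher and 2 lower (5.61% and 5.17% of 19099 genes). The fit without the set called 0 members and 0 of all 19099 genes, with 0 members at an unadjusted edgeR p under 0.05. DESeq2 with the set called 1 of 64 members, the fall of EEF2K, against 634 of 30860 genes. The median log2 fold change was 0.07 over the members and -0.01 over all genes.

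EEF2K had 30.7 and 26.0 CPM in the stimulated libraries of sets 1 and 2, and 43.6 and 41.0 CPM in the unstimulated ones. It was lower in both sets, with a log2 fold change of -0.55 ± 0.13 (SE, edgeR adjusted p = 0.0005), -0.51 within set 1 and -0.66 within set 2. EIF3J, a loosely bound eIF3 subunit, had 103 and 146 CPM in the stimulated and 79.0 and 117 CPM in the unstimulated libraries, a log2 fold change of 0.37 ± 0.13 (edgeR adjusted p = 0.039), 0.38 and 0.31 within sets 1 and 2. EIF3C, a core subunit, had 10.5 and 13.3 CPM in the stimulated and 8.40 and 7.75 CPM in the unstimulated libraries, a log2 fold change of 0.52 ± 0.18 (edgeR adjusted p = 0.043). Its difference was 0.32 within set 1 and 0.78 within set 2, with the same doubt over EIF3CL reads. EIF1B-AS1 had 36.9 and 9.70 CPM in the stimulated and 41.3 and 18.3 CPM in the unstimulated libraries, a log2 fold change of -0.42 ± 0.14 (edgeR adjusted p = 0.037), but -0.16 within set 1 and -0.91 within set 2. Whether counting used the strand is not given in the sources used here, so its reads and those of EIF1B, on the other strand, cannot be told apart. EEF1A1 had 6150 and 5720 CPM in the stimulated and 6200 and 5280 CPM in the unstimulated libraries, and EEF2 455 and 1100 against 473 and 1030. Among the lists, PPP1R15A rose by 2.01 ± 0.16, PPP1R15B by 0.56 ± 0.12, EIF2AK3 by 0.52 ± 0.13 and the termination factor ETF1 by 0.47 ± 0.13, and no tRNA synthetase or mitochondrial factor was called.

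Some members differed between the sets. In unstimulated cells, 5 of 61 members with at least 100 UMIs in the pair were over 2-fold higher in set 1 and 19 over 2-fold higher in set 2, that is 8.2% and 31.1%. Of all 13312 genes with that depth the shares were 29.2% and 13.4%. EIF4A2 had 623 and 540 CPM (stimulated and unstimulated) in set 1, and 74.1 and 55.1 CPM in set 2. EIF5A ran the other way, with 61.6 and 63.6 CPM in set 1 and 554 and 521 CPM in set 2. The Jurkat cells of the mix had 74.5 CPM of EIF4A2 and 443 CPM of EIF5A. In the libraries labelled K562 EIF4A2 had 1670 CPM with IAA and 1650 CPM without, and EIF5A 64.5 and 43.0 CPM. EEF1A1 ranged less, from 3310 CPM in the library labelled K562 without IAA to 6200 CPM in unstimulated set 1 among these libraries.

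In activated mouse naive T cells, the CPM of factors such as Eif5a, Eif4a1 and Eif3b was higher at 8 h than at 0 h. That of Eef1a1 and Eef2 was lower. CPM is a share of a library's UMIs. The median UMIs per cell was 375 at 0 h and 659 at 8 h, so a lower CPM need not mean fewer molecules per cell. Each time has 1 library, so folds have no replicate check, and intervals cover counting error only. Of 35 members with at least 100 UMIs over 0 h and 8 h, 22 were over 1.5-fold higher at 8 h and 2 over 1.5-fold lower, that is 62.9% and 5.71%. Of all 1547 genes with that depth, 47.0% were higher and 29.5% lower. The median log2 ratio was 0.83 over the members and 0.45 over all. Of the 35 members, 6 had under 50 UMIs at 0 h and reached the depth through the 8 h library. They were Eif1ax, Eif5b, Eif2s1, Eif4a3, Eif2s2 and Eif6, with 24, 28, 35, 41, 46 and 48 UMIs at 0 h. Their place among the higher members follows in part from this filter. With 50 UMIs asked of the 0 h library alone, a filter chosen after seeing the data, 16 of 29 members were higher at 8 h and 2 lower (55.2% and 6.9%, median 0.61), against 21.5% and 54.8% of 1552 genes (median -0.82). The shares over all genes thus turned with the filter, and neither count is given as support for a direction of the family. The members' share of all UMIs was 1.67%, 1.88%, 2.16%, 2.30% and 2.46% at 0, 2, 4, 6 and 8 h. A large part of this difference was Eif5a alone, with 317 CPM at 0 h and 4290 CPM at 8 h. Lef1, a marker of resting T cells, had 35.2 CPM at 8 h and 1160 CPM at 0 h, and Il2ra, a marker of activation, 242 and 0 CPM. The list of 5 activation markers summed to 43.8, 1450, 948, 605 and 321 CPM at 0, 2, 4, 6 and 8 h. Of that list, Cd69, Egr1 and Nr4a1 moved less, with 25.3, 5.63 and 40.8 CPM at 8 h and 17.8, 4.1 and 21.9 CPM at 0 h.

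Eif5a showed the largest ratio. It had 317, 910, 3070, 4080 and 4290 CPM at 0, 2, 4, 6 and 8 h, climbing at every step. At 8 h it was 13.5-fold above 0 h, with a log2 ratio of 3.76 (95% interval 3.56 to 3.95). The library without 4sU had 280 CPM. Eif2s1, the eIF2 alpha subunit, had 47.9, 149, 291, 424 and 459 CPM, a log2 ratio of 3.26 (2.76 to 3.81) at 8 h, and also climbed at every step. Its partner Eif2s2 had 62.9, 124, 195, 259 and 296 CPM, and Eif1ax, a scanning factor, 32.8, 58.0, 159, 225 and 196 CPM. The gamma subunit gene Eif2s3x moved less, with 86.2, 50.1, 146, 127 and 124 CPM.

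In the eIF4 group some genes were higher by 2 h and others were not. Eif4a1 had 315, 1090, 1290, 1220 and 1290 CPM, so most of its 4.10-fold difference at 8 h was present at 2 h. Eif4g1, the bridge to the ribosome, had 111, 266, 369, 388 and 380 CPM. Eif4e, the cap-binding protein, had 20.5, 52.7, 110, 107 and 110 CPM. At 2 h the ratio to 0 h was 3.45 for Eif4a1, 2.57 for Eif4e, 2.40 for Eif4g1 and 1.82 for Eif4g2. It was 1.24 for Eif4g3, 1.19 for Eif4e2, 1.10 for Eif4a3, 1.04 for Eif4h, 0.771 for Eif4b and 0.525 for Eif4a2. No intervals were made for these 2 h ratios. Eif4e was scarce at 0 h and did not reach 100 UMIs over the 0 h and 8 h libraries. Eif1 was highest at 2 h, with 961, 2310, 1780, 1700 and 1400 CPM, as were Eif4g2 and Eef1b2. In eIF3, Eif3b had 126, 262, 449, 497 and 547 CPM and Eif3g 82.1, 175, 276, 253 and 297 CPM. Eif6 had 65.6, 81.7, 178, 222 and 260 CPM. Of 47 members with at least 100 UMIs over the 5 times, 5 were highest at 0 h, 3 at 2 h, 8 at 4 h, 5 at 6 h and 26 at 8 h. Of the 4002 genes with that depth, 31.2%, 16.1%, 11.3%, 10.1% and 31.2% were highest at these times, and the members' shares were 10.6%, 6.38%, 17.0%, 10.6% and 55.3%. A gene could reach that depth through the times where it was high. These shares are thus not given as support for a direction of the family either.

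The main elongation factors Eef1a1 and Eef2 held a smaller share of UMIs at every later time than at 0 h. This does not show fewer molecules per cell. Eef1a1 had 6750, 5590, 4680, 4620 and 5150 CPM, a log2 ratio of -0.39 (-0.45 to -0.33) at 8 h. Eef2 had 2050, 1680, 1470, 1460 and 1650 CPM, a log2 ratio of -0.31 (-0.42 to -0.20). Eef1b2 had 1190, 1200, 1070, 947 and 1050 CPM, while its partners in the exchange complex were higher at 8 h: Eef1g had 726, 726, 1060, 1050 and 1240 CPM and Eef1d 213, 174, 234, 251 and 327 CPM. In all, 2 members were past 1.5-fold lower. Eif3f had 511, 389, 274, 276 and 296 CPM, a log2 ratio of -0.79 (-1.04 to -0.54). Eif4a2 had 90.3, 47.4, 60.5, 42.5 and 52.1 CPM, a log2 ratio of -0.79 (-1.42 to -0.19). The library without 4sU, to which the labels give no time, had 312 CPM of Eif4a2. Eif3h, at 319 CPM at 8 h and 345 CPM at 0 h, and Eif4g3, at 120 and 99.8 CPM, had intervals that include no change.

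The partner genes were read in the same libraries. A gene could reach 100 UMIs through 1 of the times alone, so values are given without counts. On the cytosolic tRNA synthetase list Wars, for tryptophan, had 124 CPM at 8 h and 17.8 CPM at 0 h, Kars, for lysine, 303 and 54.7 CPM and Gars, for glycine, 129 and 49.2 CPM, and the complex member Aimp1 had 218 and 64.3 CPM. Of poly(A) binding, termination and recycling, Denr, a reinitiation and recycling factor, had 93 UMIs at 8 h and 8 at 0 h, Etf1 274 and 84.8 CPM and Pabpc1 1960 and 899 CPM. Among regulators, Pdcd4, which blocks eIF4A, had 26.7 CPM at 8 h and 271 CPM at 0 h, Rictor, of the second mTOR complex, 14.1 and 123 CPM, and Larp1 194 and 72.5 CPM.

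**Figure D4:**
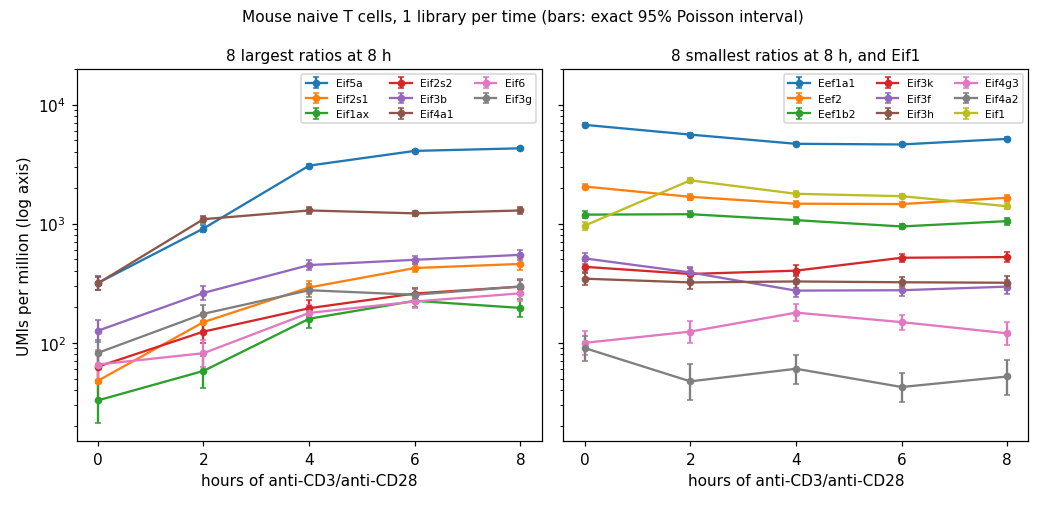
CPM (log axis) of translation factors in mouse naive T cells after 0 to 8 h of anti-CD3 and anti-CD28, 1 library per time, with exact 95% Poisson intervals; left the 8 members with the largest ratio at 8 h, right the 8 with the smallest and Eif1. Eif5a climbs 13.5-fold, and Eef1a1 and Eef2 lie below their 0 h level at every later time. On the left, Eif2s1, Eif1ax, Eif2s2 and Eif6 had under 50 UMIs at 0 h.

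In eHAP cells the same factors were read by 3 protocols, with 1 library each. NOTE-seq gave 20 of 62 members over 1.5-fold above 10x and 6 over 1.5-fold below, 32.3% and 9.68%, against 30.0% and 16.4% of 14714 genes. Among those above, EEF1A2, the eEF1A form of muscle and neurons, had 516 CPM by NOTE-seq and 110 CPM by 10x, and EIF5A 1050 and 376 CPM. EIF5AL1, a near copy of EIF5A whose reads may be split with it, had 74.4 and 5.25 CPM. EIF4B had 430 and 196 CPM and EIF3B 490 and 229 CPM. Among those below, EIF3K had 217 and 455 CPM, EEF1E1 104 and 192 CPM, and EIF1 482 and 857 CPM.

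Methanol gave 9 of 62 members above and 27 below 1.5-fold, 14.5% and 43.5%, against 6.61% and 72.7% of 14145 genes. The median log2 ratio was -0.43 over the members and -1.47 over all genes. Ratios to 10x share that library with those of NOTE-seq. EEF1B2 had 2460 CPM by methanol and 1060 CPM by 10x, EIF3J 338 and 124 CPM, EIF2B1 129 and 57.3 CPM, and EIF2S2 521 and 253 CPM. EEF2K had 4.35 and 36.6 CPM, EIF4G3, a further eIF4G, 28.9 and 235 CPM, and EIF3A 81.9 and 481 CPM. EEF2 had 287 CPM by methanol and 1000 CPM by 10x, while EEF1A1 had 3380 and 4140 CPM. EEF1A2 had 29.0 and 110 CPM, so that it lay above 10x by NOTE-seq and below it by methanol.

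**Figure D5:**
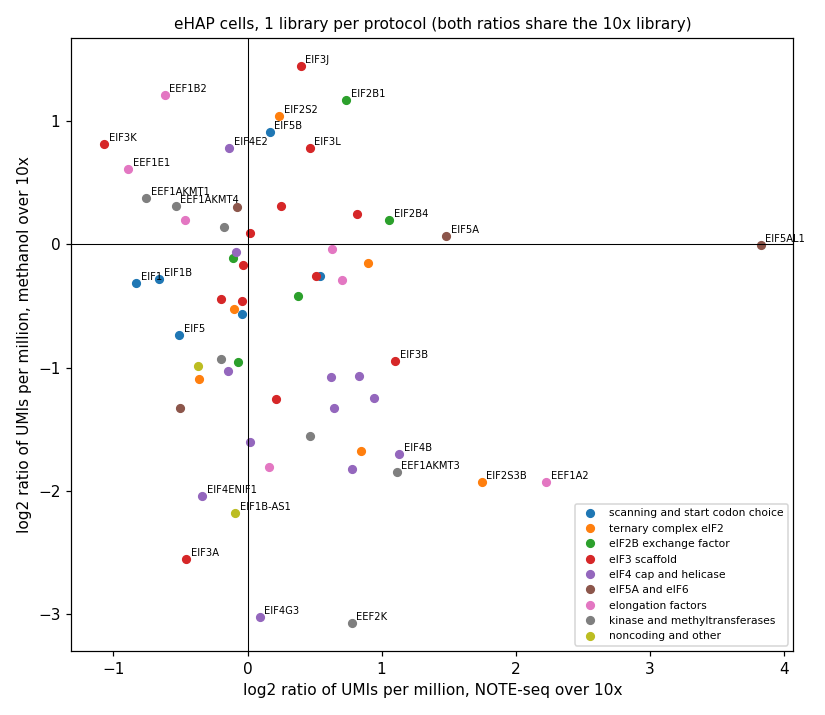
Log2 ratio of CPM of translation factors in eHAP cells, NOTE-seq over 10x (horizontal) against methanol over 10x (vertical), 1 point per gene and 1 library per protocol, coloured by role, with the genes of largest and smallest ratio named. EIF5AL1 and EEF1A2 lie farthest right, and EEF2K and EIF4G3 lowest.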

How the data were processed

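Single-cell matrices hold UMI counts deposited by the authors, made with cellranger 7.1.0 or 7.2.0 per the file headers. Bulk tables hold counts per 3' UTR line (all reads, T-to-C converted reads, conversions, covered T positions), deposited by the authors and made with slamdunk 0.4.3 on GENCODE 33 lines, per the file headers. Aligner settings are not given in the sources used here. Builds were GRCh38 and mm10 per the labels.

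Here, UMIs were summed over barcodes (no doublet caller). In the mix a cell was human or mouse at 90% of its UMIs. Overlapping 3' UTR lines formed 68330 groups, each read by its line with most reads and named by RefSeq position (91.44% of reads). Mitochondrial lines were left out of the tests. Counts were tested with edgeR 4.0.16 (quasi-likelihood, filterByExpr, TMM), all 9 bulk libraries in 1 fit, and adjusted over all features. Simulated data with a fixed spread and no set effect were used to check the fits of CPT new, CPT total and stimulated single-cell RNA. They could not check the set term under differences between sets such as those seen here. Alternatives included DESeq2 1.42.0. Single libraries were compared by CPM ratio with exact 95% intervals, called past 1.5-fold, with 100 or more UMIs in the pair. Of the Jurkat single-cell libraries, those of set 1 carry rep1 in their titles and those of set 2 no number. Taking this as a set is a reading of the labels, not a stated pairing; deviations of same-set libraries correlated at 0.865, a hint from the data, and the set is a term of the fit.

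Members named are those past adjusted p 0.05, at most 20 by p, the 8 largest and smallest ratios, the 6 highest and lowest shares, and EEF1A1, EEF2, EIF4A1, EIF4A2, EIF4E, EIF4G1, EIF2S1, EIF5A, EIF1 and EIF6. Further members past the test are named by role, chosen after their values were seen. The members and lists were chosen with earlier results of these data known. Mouse SLAM-seq tables were not used, since their lines were paired with no gene names here. Y-linked members are not reported here.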

Additional observations from a re-analysis of the deposited data

How the results depend on the processing

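Total RNA calls numbered 40 to 44 with CPT (42 as reported) and 29 to 34 with ETO (36) over single left-out libraries; with plain library totals, falls and rises were 29 and 15 with CPT and 18 and 20 with ETO. For CPT new RNA (3) the count was 10 by DESeq2, 1 with the compared groups alone and 31 with library sizes from all reads, where the EIF4A2 log2 fold change turned to -0.081; without single libraries it was 1 to 8. For ETO new RNA (1) it was 3 by DESeq2, 2 without a filter and 8 with the compared groups alone; left-out libraries gave 1 each. For CPT against ETO (0) it was 3 by DESeq2, 1 with DESeq2 size factors, 31 with library sizes from all reads and 0 to 3 without single libraries. Over all genes, library sizes from all reads called 3316 of 8966 with CPT and 3504 of 8966 for CPT against ETO. The stimulated single-cell count (4) was 1 by DESeq2, 2 with DESeq2 size factors, 2 without a filter and 0 with no replicate block; leaving out 1 library leaves a difference within the other set, with no test. The median labelled share (1.69%) was 1.48% at 20 or more reads, 1.57% with all lines summed, 0.133% per covered T position and 1.54% to 1.71% without single control libraries. Fits with the replicate number as a block called 2, 1, 0, 41 and 35 members (CPT new, ETO new, CPT against ETO, CPT total, ETO total); same-numbered bulk libraries did not deviate together. Of these shifts the cause was not tested, apart from the scaling to all reads, which follows the lower converted share with CPT. Calls between single libraries stayed within 1.5 times; of the values of named members under other settings, 16 of 48 moved for methanol and none of 48 for NOTE-seq or for naive T cells. EIF4E had 22 to 36 converted reads per CPT library.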
